A study of Mus musculus with 4 samples.

Results

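The killer cell lectin-like receptors, encoded by the Klr genes, and the Clec2 proteins, some of which are their ligands, were examined in CD4+ spleen cells of mice. Every gene whose single symbol in the platform annotation starts with Klr or Clec2 was taken, which gave 31 of the 19938 genes with a value, 23 of them Klr and 8 Clec2 genes. Each was measured by 1 probe set. Total RNA was profiled on 4 single-channel Affymetrix gene arrays, 2 in each group. One group was CD4+ splenocytes of wild type C57BL/6 mice. The other was CD4+ lymphoma from the spleen of C57BL/6 mice with both copies of Tet2 carrying a gene trap, and Tet2 encodes an enzyme that oxidises methylated cytosine in DNA. Pairs of values below are in the order of samples 1 and 2 of a group, and intensities are linear brightness values of a probe set. Cells were bound by an antibody to CD4 and held on magnetic columns, a step that enriches cells carrying CD4 without removing every other cell. The labels give no age, no purity and no statement that the 2 samples of a group came from separate animals. Sex-linked genes, given below, showed that the 2 wild type samples differed in sex and left the sex of lymphoma 1 unclear. The p-values measure the spread between the samples of a group, which may in part be technical. Genotype and malignancy differed together between the groups and cannot be told apart.

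Klr receptors are type II membrane proteins with a lectin-like domain, encoded together in the natural killer (NK) gene complex. They are best known from NK cells, where inhibitory members carry tyrosine motifs that recruit phosphatases and activating members signal through adaptors such as DAP10 and DAP12. Several are also found on T cells, NKT cells and myeloid cells. Some bind MHC class I or related molecules, and the NKR-P1 receptors bind Clec2 proteins encoded among them.

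In lymphoma 4 of the 31 genes fell and none rose at an adjusted p under 0.05 in limma. Those that fell were Klri1, Klri2, Klra17 and Klrk1. In bulk samples fewer cells of a type and less RNA per cell cannot be told apart. Of all 19938 genes, 4.27% were called, 2.46% lower and 1.82% higher. At an unadjusted p under 0.05, 9 of the 31 genes were lower and 0 were higher, against 6.92% and 8.73% of all genes. Adjusted p-values are Benjamini-Hochberg values over all genes. The median log2 difference, lymphoma minus wild type, was -0.28 over the 31 genes and -0.04 over all genes. Negative differences were found for 26 of the 31 genes, against 56.2% of all genes. The number was 23 under quantile normalization and 24 with array medians subtracted. The share of all genes was not counted under these scalings, where the median of all genes was 0.00017 and 0.038. Both lymphoma values lay under both wild type values for 14 of the 31 genes, against 23.5% of all genes. Many of these were dim genes, not above the background level defined below. Such genes made up 1 of the 4 called, 4 of the 9, 15 of the 26 and 8 of the 14. The 8 Clec2 genes had no call in either direction (0 also at an unadjusted p under 0.05 in limma), with log2 differences between -0.34 and 0.20.

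Many of these genes gave dim signals. A background level was set on each array at the 95th percentile of 1194 genes for olfactory and vomeronasal receptors, which are receptors of the nose. It lay between an intensity of 84.4 and 98.5. A gene counted as above background where both arrays of at least 1 group exceeded their level, which is a description and not a detection test. By this rule 12 of the 31 genes were above background, against 66.5% of all genes. The count was 17 with the 90th percentile and 7 with the 99th percentile. The 12 were Klri1, Klri2, Klrk1, Klrd1, Klrb1b, Klrb1c, Klrb1f, Klrg1, Clec2d, Clec2i, Clec2j and Clec2l. Of these, 7 exceeded the level on all 4 arrays. Klri1, Klri2 and Klrk1 exceeded it on both wild type arrays and on neither lymphoma array, a pattern found in 0.873% of all genes. A further 15 genes lay under the level on every array, and the other 4, Klra17, Klrc1, Klrc2 and Clec2g, exceeded it on 1 or 2 arrays only. Among genes above background, 3 of 12 were called lower and 0 of 12 higher, and over all genes above background 3.57% were called lower and 2.71% higher. A gene that was above background through the wild type arrays alone had to be lower in lymphoma, so nothing is read from this count.

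**Figure D1:**
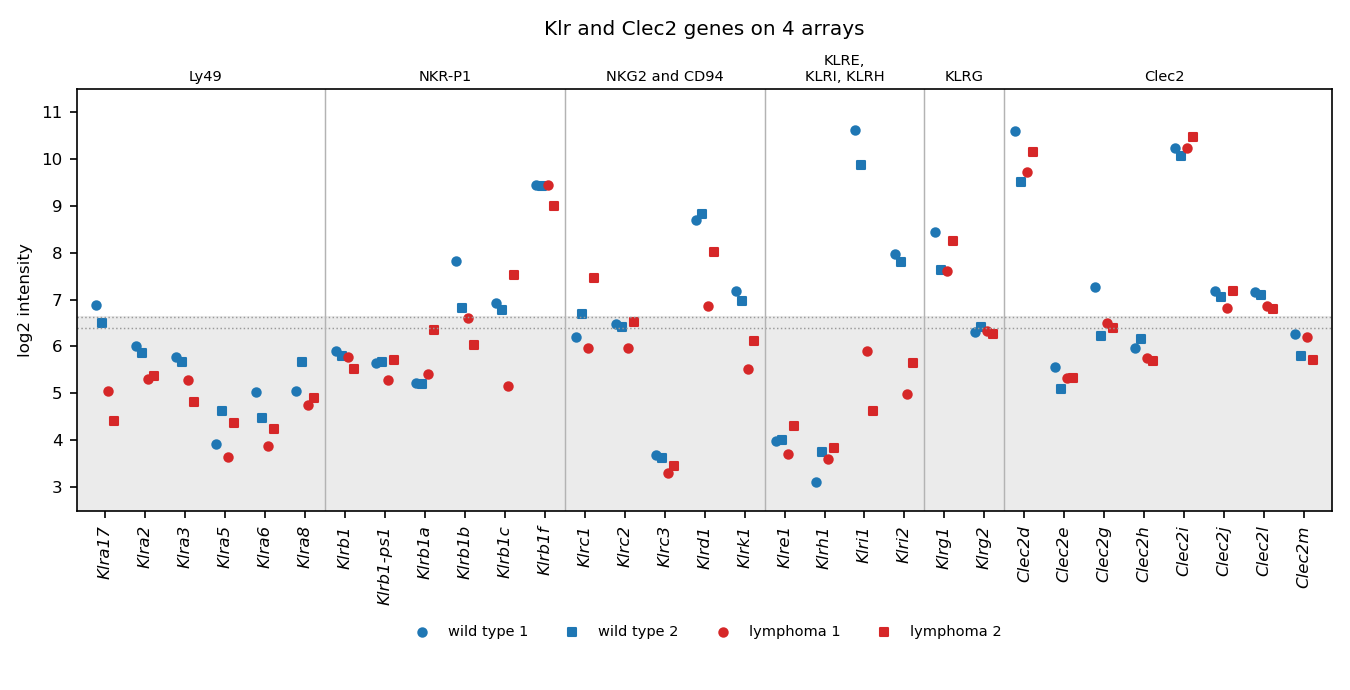
Log2 intensity of the 31 genes on the 4 arrays, grouped by receptor type (blue, wild type; red, lymphoma; circles, replicate 1; squares, replicate 2). The grey area ends at the highest of the 4 background levels and the dotted lines mark the lowest and the highest. Klri1, Klri2 and Klrk1 lie above these levels on the wild type arrays and below them on the lymphoma arrays, while Klrb1f, Clec2d and Clec2i are above them on all arrays.

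Promoter windows are shown for the called genes, which fell together in this comparison. RefSeq windows (GRCm38.p6, 250 bases before to 50 bases after the annotated start) were matched by symbol for 26 of the 31 genes and 3 of the 4 called ones. Capitals mark matches on either strand to 3 motifs of transcription factor families that act in T and NK cells. They were chosen after the windows had been seen, and a match is only a description. They were TGTGGT for RUNX factors, AGGTGT for T-box factors and CTTTGA for TCF and LEF factors, and none of the 3 overlapped another match in these windows. The windows are at chr6:129717083-129717382 for Klri1, chr6:129876623-129876922 for Klra17 and chr6:129623815-129624114 for Klrk1, all on the minus strand and printed 5′ to 3′.
Klri1: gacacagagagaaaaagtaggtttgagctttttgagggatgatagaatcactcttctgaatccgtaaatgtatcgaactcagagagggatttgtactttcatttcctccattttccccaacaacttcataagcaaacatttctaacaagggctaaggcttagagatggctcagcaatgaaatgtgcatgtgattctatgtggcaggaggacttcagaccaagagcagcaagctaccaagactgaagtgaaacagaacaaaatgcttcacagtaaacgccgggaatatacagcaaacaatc
Klra17: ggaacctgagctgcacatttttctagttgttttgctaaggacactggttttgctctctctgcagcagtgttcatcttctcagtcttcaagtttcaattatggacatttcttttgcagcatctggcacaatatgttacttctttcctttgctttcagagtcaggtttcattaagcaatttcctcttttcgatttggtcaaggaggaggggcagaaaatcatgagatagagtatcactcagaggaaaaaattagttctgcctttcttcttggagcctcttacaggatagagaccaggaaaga
Klrk1: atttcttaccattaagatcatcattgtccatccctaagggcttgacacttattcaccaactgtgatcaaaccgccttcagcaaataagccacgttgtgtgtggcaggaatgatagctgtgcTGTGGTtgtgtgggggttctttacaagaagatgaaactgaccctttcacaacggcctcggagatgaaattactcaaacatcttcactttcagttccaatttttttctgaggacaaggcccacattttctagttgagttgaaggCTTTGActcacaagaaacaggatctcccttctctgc
The Klrk1 window held the RUNX motif at bases 122 to 127 and the TCF and LEF motif at bases 265 to 270, counted from the first base printed. The Klri1 and Klra17 windows held none of the 3 motifs. Over all 32851 windows of 300 bases in the table, 16.8% held the RUNX motif, 13.7% the T-box motif and 16% the TCF and LEF motif. Of the 26 genes with a window, 7 held the RUNX motif, 2 the T-box motif and 6 the TCF and LEF motif.

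Klri1 encodes an inhibitory receptor and Klri2 a related activating one, and each is known to pair with the product of Klre1. The Klri1 intensity was 1562 and 934 in wild type cells against 60.1 and 24.65 in lymphoma. Both lymphoma values were far under both wild type values and under the background level. In log2 units the group means were 10.24 ± 0.52 (SD, n = 2) and 5.27 ± 0.91 (SD, n = 2), and Klri1 fell by 4.97 (SE 0.45, 95% interval -6.07 to -3.87, adjusted p = 0.0053 in limma). This is 31.4-fold as measured. Where a lymphoma value was set to its array's background level, the fall was at least 14.0-fold. Klri2 had an intensity of 252 and 223 in wild type cells against 31.6 and 50.3 in lymphoma. Its groups did not overlap either, and here lymphoma 1 was the lower tumour array, while for Klri1 it was lymphoma 2. Klri2 fell by 2.57 on the log2 scale (SE 0.25, 5.94-fold, at least 2.75-fold against the background level, adjusted p = 0.0063 in limma). Klre1, the partner chain, lay between 13.1 and 19.8 on the 4 arrays, under background throughout, with a log2 difference of 0.02 (95% interval -0.64 to 0.67). Klrh1, the remaining gene of this group, lay between 8.62 and 14.2 and was also under background on every array.

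The calls, though not the direction, of these receptors depended on the wild type pair. Without wild type array 1 the adjusted p in limma was 0.116 for Klri1, 0.128 for Klri2, 0.194 for Klra17 and 0.325 for Klrk1. Without wild type array 2 it was 0.0740 for Klri1, 0.0943 for Klri2, 0.124 for Klra17 and 0.263 for Klrk1. The log2 differences of Klri1, Klri2, Klra17 and Klrk1 were -4.60, -2.48, -1.77 and -1.14 without wild type array 1, and -5.34, -2.66, -2.16 and -1.35 without wild type array 2. In these fits 1 array stood for the wild type, the spread came from the lymphoma pair, and no gene passed, among the 31 or among all genes. The size of the Klri1 change moved most with the tumour arrays, to -5.61 without lymphoma array 1 and -4.33 without lymphoma array 2, and all 4 genes stayed called in both of these fits.

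Klrk1 encodes NKG2D, an activating receptor for stress-induced relatives of MHC class I, which signals through the adaptors DAP10 and DAP12. Its intensity was 145 and 125 in wild type cells against 46.1 and 69.9 in lymphoma. Both wild type values exceeded background and neither lymphoma value did. Klrk1 fell by 1.25 on the log2 scale (SE 0.24, 2.37-fold, at least 1.56-fold against the background level, adjusted p = 0.046 in limma). This call was close to the threshold. The adjusted p in limma was 0.0815 after quantile normalization and 0.0784 after each array's median was subtracted. It was 0.0544 with no variance trend, and 0.0535 where every probe set with 1 symbol was tested, so each of these settings ended the call. The log2 difference was -1.16 and -1.17 in the first pair of settings and -1.25 in the other pair.

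Klrd1 encodes CD94, which forms heterodimers with the NKG2 proteins of Klrc1 (inhibitory) and Klrc2 (activating) that recognise the nonclassical MHC molecule Qa-1. Klrd1 had an intensity of 412 and 457 in wild type cells against 116 and 260 in lymphoma. The groups did not overlap, and the lymphoma arrays stood further apart than the wild type arrays. The log2 difference was -1.32 (SE 0.37, 95% interval -2.23 to -0.41), and it did not pass in limma with all arrays (adjusted p = 0.136). Leaving out lymphoma array 2 gave -1.91 (adjusted p = 2.46e-05), a fit in which 1 array stands for the tumours and is assumed to vary like the wild type pair. Leaving out lymphoma array 1 in the same way gave -0.74 (adjusted p = 0.0994), which did not pass. Klrc1 had an intensity of 73.4 and 104 in wild type cells against 62.4 and 176 in lymphoma. Its lymphoma values lay on either side of the wild type pair, with a log2 difference of 0.26 (95% interval -0.89 to 1.41, adjusted p = 0.886 in limma). That difference was 1.01 (adjusted p = 0.0224) without lymphoma array 1 and -0.48 (0.443) without lymphoma array 2. Klrc2 lay between 62.5 and 91.7 and overlapped between the groups (log2 difference -0.20, 95% interval -0.75 to 0.35). Klrc3 lay between 9.89 and 12.9, under background on all arrays.

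Replicates of both groups stood apart for some of these genes. Wild type 1 exceeded wild type 2 by at least 1 log2 unit for 3 of the 31 genes, Clec2d, Clec2g and Klrb1b, against 104 of all 19938 genes. Lymphoma 2 exceeded lymphoma 1 by at least 1 log2 unit for 3 of the 31 genes, against 1.72% of all genes. These were Klrb1c (2.37), Klrc1 (1.49) and Klrd1 (1.17). The reverse held for 1 of the 31 genes, Klri1, where lymphoma 2 minus lymphoma 1 was -1.29, against 2.2% of all genes. The Klrb1c product is NK1.1, a surface marker of NK and NKT cells in C57BL/6 mice. Its intensity was 121 and 109 in wild type cells against 35.6 and 184 in lymphoma. The tumour values again enclosed the wild type pair (log2 difference -0.50, 95% interval -2.18 to 1.17, adjusted p = 0.845 in limma). This difference was -1.69 (adjusted p = 0.000103) without lymphoma array 2 and 0.68 (0.126) without lymphoma array 1.

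**Figure D2:**
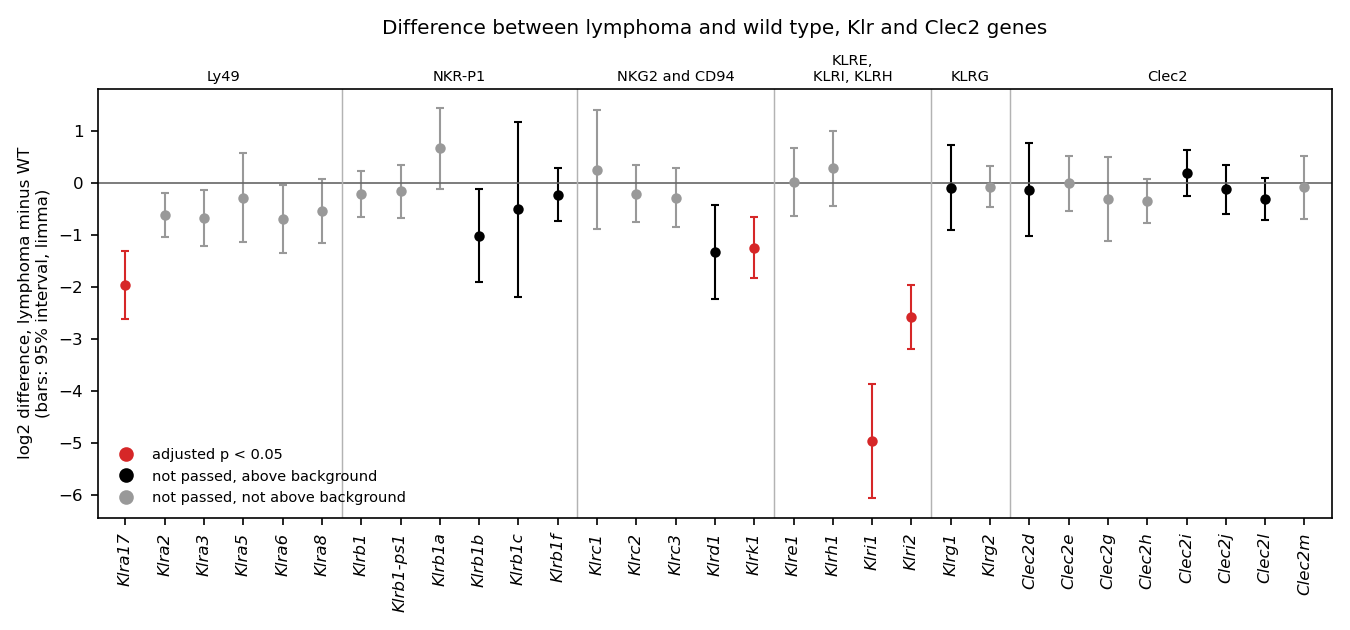
Log2 difference, lymphoma minus wild type, of the 31 genes with 95% intervals from limma (red, adjusted p under 0.05; black, not passed and above background; grey, not passed and not above background). Klri1 is lowest at -4.97, followed by Klri2, Klra17, Klrd1 and Klrk1, and the interval of Klrb1c, from -2.18 to 1.17, is the widest among the genes above background.

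The NKR-P1 receptor genes and the Clec2 genes had no call, and Klrb1b alone among them was lower at an unadjusted p under 0.05. Klrb1b, an inhibitory receptor that binds the Clec2d product Clr-b, had an intensity of 228 and 113 in wild type cells against 97.4 and 65.3 in lymphoma. The groups did not overlap, but the wild type arrays differed from each other by 1.01 log2 units. The log2 difference of Klrb1b was -1.01 (SE 0.37, 95% interval -1.90 to -0.12, adjusted p = 0.25 in limma). Leaving out lymphoma array 1 gave -1.30 (adjusted p = 0.014) and leaving out lymphoma array 2 gave -0.72 (adjusted p = 0.230), both fits in which 1 array stands for the tumours. Leaving out wild type array 1 gave -0.50, and leaving out wild type array 2 gave -1.51. Its ligand gene Clec2d gave a bright signal on every array, with an intensity of 1554 and 729 in wild type cells against 849 and 1128 in lymphoma. The lymphoma values lay inside the wild type range, and the log2 difference was -0.12 (95% interval -1.02 to 0.78, adjusted p = 0.942 in limma). Leaving out wild type array 1 turned it to 0.43, and leaving out wild type array 2 gave -0.67.

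Klrb1f, a receptor known to bind the Clec2i product Clr-g, had an intensity of 700 and 690 in wild type cells against 698 and 511 in lymphoma. Only lymphoma 2 was below the others, and the log2 difference was -0.22 (95% interval -0.74 to 0.30, adjusted p = 0.762 in limma). Clec2i had an intensity of 1208 and 1078 in wild type cells against 1198 and 1425 in lymphoma, with overlapping groups (log2 difference 0.20, 95% interval -0.25 to 0.64, adjusted p = 0.749). Both intervals of this receptor and ligand pair lay within 1 log2 unit of 0. Klrb1a was the 1 gene of the 31 whose lower lymphoma value exceeded its higher wild type value, against 20.6% of all genes. It lay under background on all arrays, at 37.2 and 37.0 in wild type and 42.3 and 82.2 in lymphoma (adjusted p = 0.405 in limma). Klrb1a and Klrc1 were called higher only without lymphoma array 1, a fit in which lymphoma array 2 alone stands for the tumours. Klrb1 and the pseudogene Klrb1-ps1 were under background throughout. Clec2j, annotated as a pseudogene (intensities from 113 to 146), and Clec2l (111 to 144) were above background on all arrays. Clec2e, Clec2h and Clec2m were under it on all arrays.

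Klrg1, an inhibitory receptor for cadherins that is known as a marker of differentiated effector T and NK cells, had an intensity of 346 and 197 in wild type cells against 197 and 306 in lymphoma. The groups overlapped, and the log2 difference was -0.09 (95% interval -0.91 to 0.73, adjusted p = 0.954 in limma). Leaving out wild type array 1 turned it to 0.32, and leaving out wild type array 2 gave -0.49. Klrg2 lay between 76.5 and 85.1, under background on every array.

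The Ly49 receptors, encoded by Klra genes, mostly bind classical MHC class I and act on NK cells. Of 6 such genes, 1 fell, against 2.46% of all genes. All 6 had negative log2 differences under each of the 3 scalings, against 56.2% of all genes with the values as deposited. For 5 of them both lymphoma values lay under both wild type values, against 23.5% of all genes. By the rule used here 0 of the 6 were above background, and their signals can overlap, so nothing is read from these counts. Klra17 encodes Ly49Q, which unlike its relatives is known from plasmacytoid dendritic cells and myeloid cells. Its intensity was 118 and 90.2 in wild type cells against 32.9 and 21.4 in lymphoma. Only wild type array 1 exceeded background, so the size of its fall rests on dim values. Klra17 fell by 1.96 on the log2 scale as measured (SE 0.27, 3.89-fold, adjusted p = 0.015 in limma). Siglech, a marker of plasmacytoid dendritic cells, moved on the same arrays, from 794 and 527 to 102 and 111 (log2 difference -2.60, adjusted p = 0.0055 in limma), and its part in the Klra17 result was not tested. The other 5, Klra2, Klra3, Klra5, Klra6 and Klra8, lay between 12.4 and 64.7, under background on all arrays, with log2 differences between -0.69 and -0.28. These genes are close copies, and 4 more probe sets carried from 3 to 7 Klra symbols and entered no test. Their intensities lay between 10.8 and 36.0, also under background on all arrays, with log2 differences between -1.31 and -0.24. Signal of single Klra genes can include that of their relatives.

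All 31 genes lie on chromosome 6 in RefSeq GRCm38.p6, and 28 of them lie in the stretch from Klrb1a to Klra2. The called receptors were not one unbroken run. Between Klrk1 and Klri1 lie Klrc3, Klrc2 and Klrc1, none of which passed, and between Klri2 and Klra17 lies Klrh1. The next measured gene before Klre1, Gabarapl1, an autophagy gene, rose by 1.74 on the log2 scale (adjusted p = 0.017 in limma). Of 8 further C-type lectin genes of the complex, 3 fell and none rose (3 were lower and 1 was higher at an unadjusted p under 0.05). These were Clec9a (-2.49), a receptor of cross-presenting dendritic cells, Clec12a (-2.17), a myeloid inhibitory receptor, and Clec1b (-2.11), the podoplanin receptor CLEC-2, each with an adjusted p under 0.05 in limma. The early activation marker Cd69 differed by 0.83 (adjusted p = 0.077). The list's median was -0.24.

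**Figure D3:**
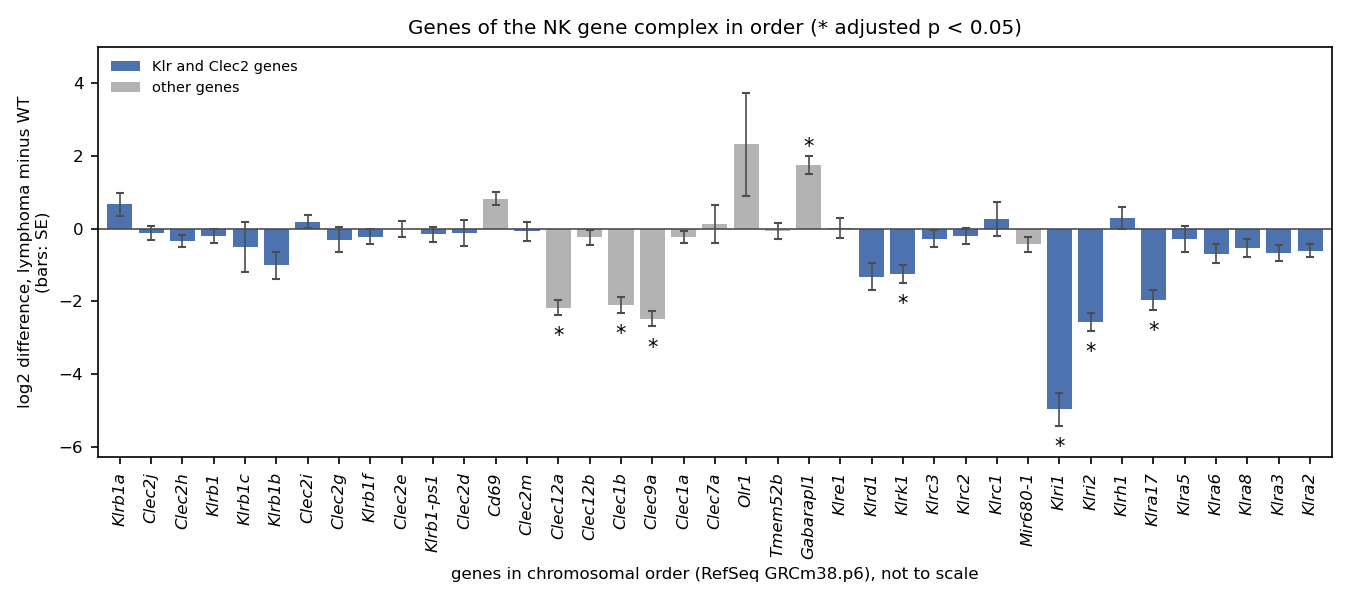
Log2 difference, lymphoma minus wild type (bars, SE from limma), of measured genes in chromosomal order from Klrb1a to Klra2, not to scale (blue, Klr and Clec2 genes; grey, other genes; asterisk, adjusted p under 0.05). The Clec2 and Klrb1 genes on the left lie between -1.01 and 0.67, and genes that did not pass lie between Klrk1 and Klri1 and between Klri2 and Klra17.

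Adaptors and signalling partners of these receptors were examined as a list. Of 12 measured genes 4 fell and none rose, with a median of -0.32. At an unadjusted p under 0.05 in limma, 5 were lower and 2 were higher. Tyrobp, which encodes DAP12, fell by 2.87 on the log2 scale (SE 0.24, adjusted p = 0.0042 in limma), from intensities of 2207 and 1967 to 235 and 348. Fcer1g, another adaptor, fell by 2.40, the phospholipase gene Plcg2 fell by 2.35 and the kinase gene Syk fell by 2.22. All 4 are also expressed in B or myeloid cells. Hcst, which encodes the DAP10 adaptor of NKG2D, was 538 and 319 in wild type cells against 270 and 391 in lymphoma, with overlapping groups (log2 difference -0.35, adjusted p = 0.727). Zap70, the T cell relative of Syk, differed by 0.97 (adjusted p = 0.098). Of 9 listed NKG2D ligands 2 had a value, Raet1d (log2 difference 0.23) and H60b (-0.53), both under background on all arrays and not called. Of 7 listed ligands of other Klr receptors 4 had a value and none was called. H60b and Cdh1 were lower at an unadjusted p under 0.05. The 2 with the largest differences were the cadherin genes Cdh1 (-0.45, adjusted p = 0.306) and Cdh4 (-0.14, adjusted p = 0.828).

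Markers of other cells were read on the same arrays. Of 15 NK cell markers outside the Klr family, 2 fell and none rose, with a median of -0.46. At an unadjusted p under 0.05 in limma, 6 were lower and 3 were higher. The 2 that fell were Sh2d1b1, an adaptor of SLAM receptors (-2.49, adjusted p = 0.0032 in limma), and the receptor Cd244a (-2.26, adjusted p = 0.0030). Ncr1, the defining NK receptor NKp46, was under background on all arrays, at 71.0 and 46.5 in wild type and 32.2 and 31.5 in lymphoma. Its log2 difference was -0.85 (adjusted p = 0.142 in limma). Eomes, an NK and memory T cell factor, was 538 and 431 in wild type and 816 and 901 in lymphoma (adjusted p = 0.085). The summed intensity of the NK list was 7961 and 7099 in wild type cells against 7260 and 9060 in lymphoma. Il2rb gave the largest part of each sum, with 3241 and 2914 in wild type and 3491 and 5313 in lymphoma. Of the 15 genes, 11 had negative and 4 had positive log2 differences, so the sum does not stand for the list. Markers of B cells (8 of 9 fell), macrophages and monocytes (8 of 10) and dendritic cells (6 of 8) fell, and 0 genes of these lists rose at an adjusted or an unadjusted p under 0.05. Their medians were -3.29, -1.42 and -2.54. The summed intensity of the dendritic cell list, which includes Siglech, was 5241 and 4372 in wild type and 897 and 893 in lymphoma. That of the B cell list was 20279 and 13682 against 3049 and 2708, and that of the macrophage and monocyte list 11123 and 11125 against 2963 and 4446. Of 7 naive T cell genes with a value, 5 fell and 0 rose at an adjusted or an unadjusted p under 0.05, with a median of -1.50, and their summed intensity was 17956 and 16016 in wild type and 9146 and 3765 in lymphoma. Cd8a and Cd8b1 were lower at an unadjusted p under 0.05 and not called (-1.11, adjusted p = 0.105, and -1.27, adjusted p = 0.125), nor was the NKT cell factor Zbtb16 (-0.73, adjusted p = 0.178). Cd4 and Cd3e were bright on all arrays, and 0 of 6 CD4 T cell genes were called in limma, with unadjusted p-values under 0.05 for 4 that were higher and 1 that was lower (median 0.39). The part of these cells in the falls of Klri1, Klri2, Klrk1 and Klra17 was not tested.

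**Figure D4:**
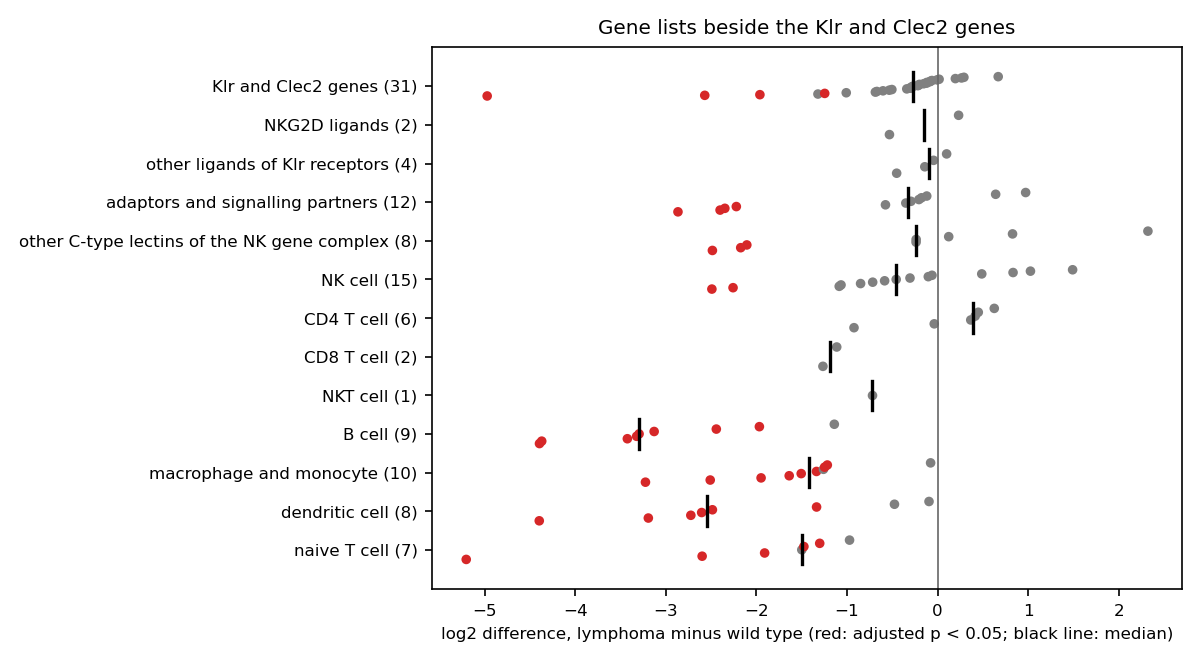
Log2 difference, lymphoma minus wild type, of each measured gene of the Klr and Clec2 set and of the lists beside it, with the number of genes in brackets (red, adjusted p under 0.05 in limma; black line, median). The medians are -0.28 for the 31 genes, -0.46 for NK cell markers, -1.50 for naive T cell genes and -3.29 for B cell markers.

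The targeted gene Tet2 had an intensity of 980 and 1016 in wild type cells against 596 and 399 in lymphoma (log2 difference -1.03, adjusted p = 0.077 in limma). The labels do not place the trap relative to its probes. Sex-linked genes differed within each group. Log2 values of Xist were 12.40 and 5.39 in wild type cells against 10.86 and 12.19 in lymphoma, and the mean of 3 Y-linked genes was 4.31 and 8.79 in wild type and 9.44 and 4.47 in lymphoma. Wild type 1 was high for Xist only and wild type 2 for the Y-linked genes only, so the wild type samples differed in sex. Lymphoma 1 was high for both Xist and the Y-linked genes, so its sex cannot be read from them, and the origin of this pattern was not tested. Lymphoma 2 was high for Xist only. With Y-linked expression as a covariate the same 4 genes were called lower and 0 of the 31 were called higher, with 1 higher at an unadjusted p under 0.05. Each group held 1 array with high and 1 with low Y-linked values. The covariate could therefore move the group differences little, and no conclusion on sex is drawn from this fit.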

How the data were processed

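The authors deposited linear intensity values of every probe set, which Affymetrix Expression Console produced, per the submitters' processing notes. How it summarised, corrected and normalized them, and its version, is not stated in the labels. The 35556 values per array had medians from 130 to 142. The number of arrays limits the precision. Log2 was taken without an offset. Probe sets were named from GEO's platform annotation (21789 with 1 symbol, 1621 with several, 12146 not listed), and the brightest by mean over the 4 arrays was kept for each gene. The group difference was fitted with limma 3.58.1 under R 4.3.3, with no covariate, a variance trend and two-sided tests, over 19938 genes, with 2 residual and 4.24 prior degrees of freedom. The procedure was tested on simulated data. Named genes are those called, the 5 brightest, Klri1, Klrk1 and their partners, and up to 4 called genes of each list. Genes above background were also named where the groups did not overlap and the log2 difference was at least 1 in size. Other genes, such as Klrb1a, Hcst and Olr1, were named after their values were seen. The members and the lists were chosen with earlier results of these data known. Figures used matplotlib 3.10.9. Alternatives were other scalings, filters, variance models, probe set rules, thresholds, a replicate block, array weights, a Y-linked covariate and leaving out each array.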

Additional observations from a re-analysis of the deposited data

How the results depend on the processing

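Over the alternatives to the setting used, no gene of the 31 was called higher except when lymphoma array 1 was left out. The number called lower was 4, with 2 once the dimmest tercile of genes was removed, 1 once genes under the median level were removed and 2 at an adjusted p under 0.01. Both removals take out some of the 31 genes. It was 3 after quantile normalization, after subtracting array medians, with no variance trend and where all probe sets with 1 symbol were tested. With 1 array left out it ranged from 0 to 6, and the number called higher from 0 to 2. Over all genes the counts were 692 lower and 665 higher at an adjusted p under 0.1, and 174 lower and 73 higher at 0.01. With 1 array left out they ranged from 0 to 843 lower and from 0 to 1057 higher. Of the pathway and marker lists, 35 genes were called lower and 0 higher, 19 lower at 0.01, 4 higher at 0.1, from 0 to 41 lower and from 0 to 5 higher with 1 array left out. The number above background was 12, with 7 at the 99th percentile, 7 with the array median as the level and 7 where all 4 arrays had to pass. Replicate numbers carry no stated pairing. Deviations of same-numbered samples correlated at r = 0.22 over 35556 probe sets, which are not independent replicates. With the replicate number as a block 5 of the 31 genes were called lower, Klrb1b (adjusted p = 0.0433 in limma) beside the 4, and 1 list gene was called higher. No other named gene of the 31 changed its call under the block. With 1 array left out, log2 differences changed sign for Clec2d (-0.67 to 0.43), Klrg1 (-0.49 to 0.32), Klrc1 (-0.48 to 1.01), Klrc2 (-0.48 to 0.077), Klrb1c (-1.69 to 0.68) and Klrb1f (-0.44 to 0.0070), none of which passed with all arrays. The cause was not tested. Values under the background level limit what can be said of dim genes.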

Other observations

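Single genes of the lists counted above had unlike values on the tumour arrays. Olr1, a scavenger receptor of the same gene complex, had an intensity of 48.6 and 57.3 on the wild type arrays, 47.2 on lymphoma array 1 and 1476 on lymphoma array 2. Gzma, which encodes granzyme A, was 50.1 and 48.1 in wild type, 267 on lymphoma array 1 and 71.2 on lymphoma array 2. The perforin gene Prf1 was 327 and 333 in wild type, and 535 and 843 in lymphoma. None of these 3 passed in limma (adjusted p = 0.556 for Olr1, 0.269 for Gzma and 0.0945 for Prf1).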
